A study of Rattus norvegicus with 17 samples.

Results

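Brg1 and Olig2 were compared within mature oligodendrocytes (mOL) by setting the Brg1 peak list of that stage against the Olig2 peak list of the same stage. The regions described are all sites of either list: overlapping peaks were merged, which gave 6180 sites, out of 33545 sites with Brg1 or Olig2 at any of the 3 stages mapped in the study. Of the 6180, 941 sites held both factors (shared sites), 3421 held Brg1 alone (Brg1-only) and 1818 held Olig2 alone (Olig2-only). The rule that makes these classes is overlap of at least 1 bp, and it uses peak positions only.

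The cells were primary wild type cells of the Sprague-Dawley rat, taken from pup cortex at postnatal day 2. Mature oligodendrocytes were labelled as T3-treated (triiodothyronine, a thyroid hormone), as were immature oligodendrocytes (iOL), whereas the label of oligodendrocyte precursor cells (OPC) is mitogen treatment. The Brg1 antibody was a gift of J. Wu and the Olig2 antibody was Millipore Ab9610, per the labels. Each target had 1 chromatin immunoprecipitation sequencing (ChIP-seq) library in mOL, and the sources used here do not say whether its cells were pooled over pups or cultures. There is no replicate and no test between classes. Intervals in parentheses are exact 95% intervals (Clopper-Pearson for a share, order statistics for a median) that cover the counting error of peaks alone. Positions are in rat build rn4, and the depth of the libraries is unknown, so a place without a peak may be occupied below the threshold of calling.

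Brg1, encoded by Smarca4, is the ATPase motor of the BAF complex, which uses ATP to slide or evict nucleosomes and so opens regulatory DNA. It has no strong sequence preference of its own and is brought to chromatin by other proteins. Olig2 is a basic helix-loop-helix transcription factor that binds E-box sequences and is needed for the formation of the oligodendrocyte lineage. Acetylation of histone H3 at lysine 27 (H3K27Ac) marks active enhancers and promoters, trimethylation at lysine 4 (H3K4me3) marks promoters, and trimethylation at lysine 9 (H3K9me3) marks silenced chromatin.

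Most sites were single-factor sites, and Brg1-only sites made up the largest class. Shared sites were 15.2% of all sites, Brg1-only sites 55.4% and Olig2-only sites 29.4%. Of the mOL Brg1 peaks, 21.9% (20.6 to 23.1) met an Olig2 peak, and of the mOL Olig2 peaks 34.1% (32.3 to 35.9) met a Brg1 peak. Overlap was nearly always between 1 peak of each list. There were 957 overlapping pairs, made by 957 Brg1 and 941 Olig2 peaks, no Brg1 peak met more than 1 Olig2 peak, and 16 Olig2 peaks met 2 Brg1 peaks. Shared sites had a median width of 984 bp (962 to 1002), Brg1-only sites 801 bp (790 to 811) and Olig2-only sites 745 bp (738 to 752). A shared site is the union of its peaks and is wider partly for that reason.

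Peaks that met the other factor were also wider as single peaks. Brg1 peaks with Olig2 had a median width of 865 bp (840 to 884) against 801 bp without, and Olig2 peaks with Brg1 had 803 bp (793 to 815) against 745 bp without. The share of Olig2 peaks that met Brg1 rose from 23.8% (20.6 to 27.1) in the narrowest 690 peaks of the list, up to 676 bp, to 49.3% (45.5 to 53.1) in the widest 690, of 865 bp or more. The share of Brg1 peaks that met Olig2 went from 17.7% (15.5 to 20.1) in the narrowest 1095 peaks to 26.1% (23.5 to 28.8) in the widest 1095. The gradient was thus steeper along the Olig2 list than along the Brg1 list. A wider peak also has more bases with which to meet another, and the part of width in these shares was not tested.

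The first question was how closely the peaks of the factors coincide where they overlap. The centres of overlapping Brg1 and Olig2 peaks lay a median of 91 bp apart (83 to 98, 957 pairs), with quartiles of 41 and 167.5 bp and a largest distance of 1038 bp. The centres were within 50 bp in 31.0% (28.1 to 34.1) of pairs, within 100 bp in 54.1% (50.9 to 57.3), within 200 bp in 82.4% (79.9 to 84.8) and within 500 bp in 98.1% (97.04 to 98.9). Both peaks of a pair were several times longer than the distance between their centres: the distance was a median of 12.1% (11.1 to 12.9) of the width of the shorter peak. Each centre lay inside the other peak in 95.6% (94.1 to 96.8) of pairs, and neither did in 17 pairs.

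**Figure D1:**
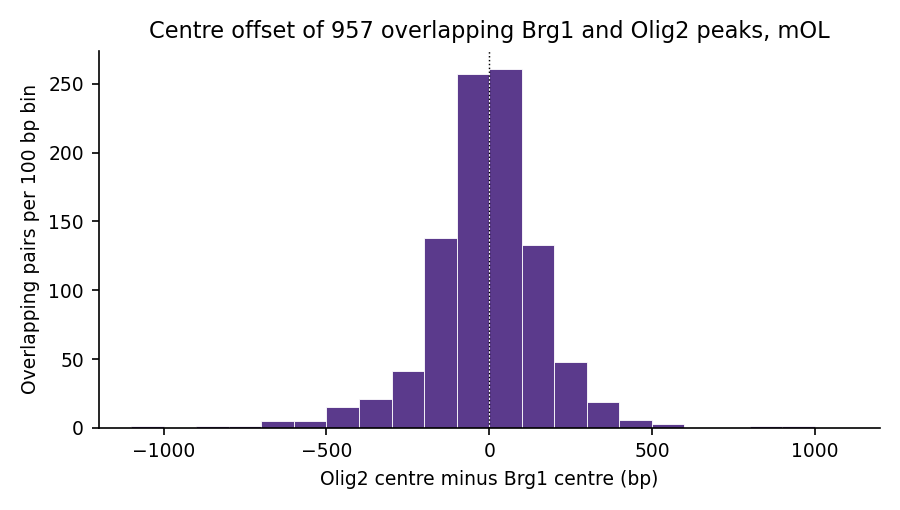
Distance in bp from the Brg1 centre to the Olig2 centre along the build (x axis) against the number of overlapping pairs per 100 bp bin (bars, y axis), for the 957 pairs of mOL. The bins on either side of 0 hold 257 and 261 pairs, and the counts fall off to both sides.

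The overlap itself was deep. It covered a median of 699 bp (685 to 708) and 99.8% (98.95 to 100) of the shorter peak. The Olig2 peak lay wholly inside the Brg1 peak in 28.5% (25.7 to 31.5) of pairs, and the Brg1 peak wholly inside the Olig2 peak in 20.7% (18.2 to 23.4). Olig2 was the wider peak in 41.5% (38.3 to 44.7) of pairs. The Olig2 centre was at the higher coordinate in 469 of the 954 pairs whose centres differed (49.2%, 45.9 to 52.4). Pairs were not oriented by gene or strand, so this share cannot show whether Olig2 has a preferred side.

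The centre distance was also read by the chromatin of the pair. Its median was 97.5 bp (86.5 to 105) in the 655 pairs with H3K27Ac and no H3K4me3, 76.2 bp (64.5 to 87.5) in the 260 pairs with neither mark, and 120 bp (65.5 to 231.5) in the 42 pairs with H3K4me3. The intervals of the first 2 medians overlapped by 1 bp, and the few pairs with H3K4me3 left their median poorly fixed. The distance was 81.2 bp (67.5 to 98.5) in the 240 pairs whose shorter peak was narrowest and 103.5 bp (91 to 122.5) in the 239 where it was widest.

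Pairs of the other stages were set beside those of mOL. The median centre distance was 132.5 bp (120 to 150) over 457 pairs of OPC and 110.5 bp (106 to 114.5) over 4118 pairs of iOL, both larger than in mOL with intervals that did not overlap that of mOL. The shorter peak of a pair had a median width of 1269 bp in OPC, 818 bp in iOL and 738 bp in mOL. Relative to that width the distance was 12.1% (11.1 to 12.9) in mOL, 13.2% (12.7 to 13.7) in iOL and 10.1% (9.06 to 11.1) in OPC, so the order of the stages in bp was not their order relative to width.

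The edge of the overlap rule ran through few peaks. The smallest overlaps were 14, 24 and 68 bp, and 6 pairs overlapped by less than 100 bp. The smallest gaps of Brg1 peaks that met no Olig2 peak were 50, 62 and 72 bp, and 4 such gaps were under 100 bp. Counting Brg1 peaks within 1000 bp of an Olig2 peak as well raised the share that met Olig2 from 21.9% to 22.4%.

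The next question was how far the remaining Brg1 peaks lay from Olig2. Few of them had an mOL Olig2 peak within 10 kb, and the same was true of factor-free mark peaks, given below. The 3421 Brg1 peaks that met no mOL Olig2 peak were a median of 213.8 kb (201.1 to 228.01) from the nearest one, with quartiles of 72.1 and 509.6 kb. An Olig2 peak lay within 1 kb of 24 of them (0.703%, 0.451 to 1.04), within 10 kb of 178 (5.21%, 4.49 to 6.01) and within 100 kb of 1074 (31.4%, 29.9 to 33.04). For 340 of them it lay beyond 1000 kb. These shares are over 3415 peaks, as 6 lay on unplaced sequence that has no mOL Olig2 peak. The wider 50% of each list gave a median of 441.2 kb, over an Olig2 list of 50% the length. The mOL Olig2 list is short, with 2759 peaks against 25787 in iOL. Of the same 3421 Brg1 peaks, 72.3% (70.8 to 73.8) had an iOL Olig2 peak within 10 kb. The part of list length in these distances was not tested.

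Other peaks of mOL without either factor were measured in the same way. H3K27Ac peaks were a median of 269 kb (264.5 to 274.3) from the nearest Olig2 peak, H3K9me3 peaks 287.8 kb (277.5 to 299.6) and H3K4me3 peaks 312.2 kb (304.6 to 319.4). Brg1 peaks without Olig2 were therefore nearer to Olig2 than factor-free peaks of any of the 3 marks, with no overlap of the intervals of the medians. At short range, 3.91% (3.70 to 4.13) of H3K27Ac peaks, 4.75% (4.26 to 5.27) of H3K9me3 peaks and 2.35% (2.13 to 2.59) of H3K4me3 peaks had Olig2 within 10 kb. The first and last of these lay below the interval of the Brg1 peaks (4.49 to 6.01), and the H3K9me3 interval overlapped it.

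Acetylation at the Brg1 peak hardly went with its distance to Olig2. The median was 209.6 kb (197.7 to 226.3) for Brg1 peaks without Olig2 that met H3K27Ac and 224.6 kb (197 to 250.2) for those that did not.

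**Figure D2:**
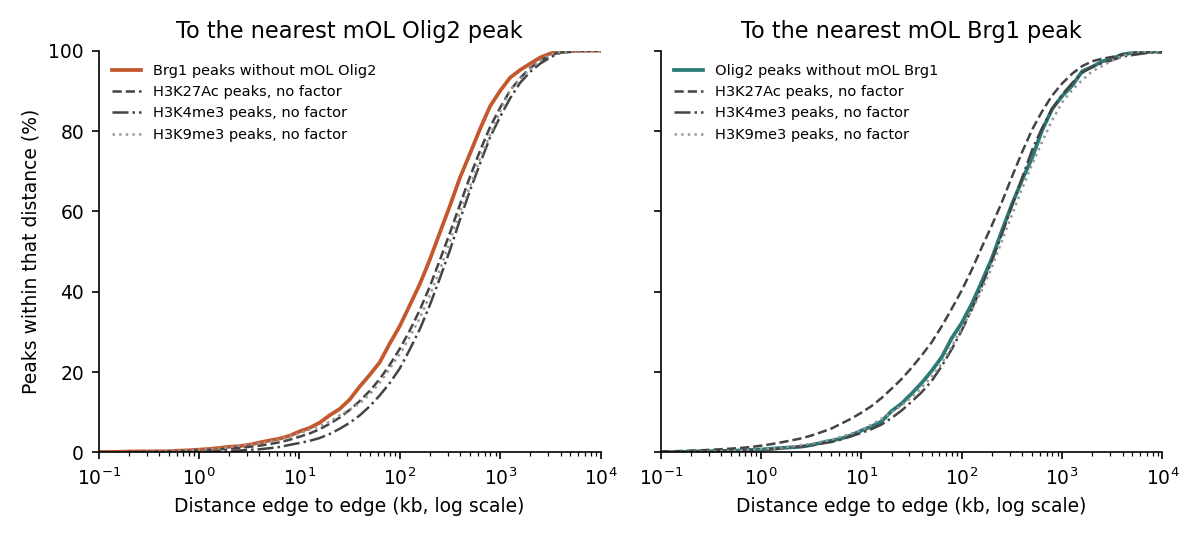
Share of peaks (y axis, percent) that lie within a given distance (x axis, kb edge to edge, log scale) of the nearest mOL Olig2 peak (left) or mOL Brg1 peak (right); solid lines are single-factor peaks, and broken grey lines are peaks of each mark that meet neither factor. On the left the Brg1 line lies above the mark lines at 100 kb (31.4% against 25.8% for H3K27Ac), and on the right the H3K27Ac line lies above the Olig2 line (40.4% against 32.2%).

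Seen from Olig2, the distances were alike in size and the comparison with the marks was not. The 1818 Olig2 peaks that met no mOL Brg1 peak were a median of 211.2 kb (195.8 to 230.5) from the nearest one, and 13 of them (0.715%, 0.381 to 1.22) had it within 1 kb. Factor-free H3K27Ac peaks were nearer to Brg1, at 151.4 kb (148.3 to 154.7), and H3K4me3 peaks, at 216.5 kb (211.1 to 221.4), and H3K9me3 peaks, at 228.5 kb (219.3 to 239.2), were at distances whose intervals overlapped that of the Olig2 peaks. Here acetylation went with distance. Olig2 peaks without Brg1 that met H3K27Ac were 134.8 kb (109.3 to 157.8) from Brg1, and those without H3K27Ac 244.4 kb (222.7 to 265.6). Brg1 lay within 10 kb of 11.3% (8.53 to 14.7) of the former and 3.56% (2.64 to 4.68) of the latter.

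Clustering of sites was then measured as the presence of another site of either factor within a gap of 10 kb. Brg1-only sites had neighbours most often and Olig2-only sites least often. A neighbour was found for 593 of 3421 Brg1-only sites (17.3%, 16.1 to 18.6), 115 of 941 shared sites (12.2%, 10.2 to 14.5) and 166 of 1818 Olig2-only sites (9.13%, 7.85 to 10.5). The intervals of the shared and Olig2-only classes overlapped. The nearest other site was a median of 66.1 kb (61.1 to 70.6) from a Brg1-only site, 77.2 kb (67.6 to 89.5) from a shared site and 124.5 kb (115.9 to 137.2) from an Olig2-only site. The order of the classes was the same with gaps of 5 and 20 kb. At the edge of the rule, 66 sites had their nearest neighbour 9 to 10 kb away and 43 had it 10 to 11 kb away.

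Each single-factor class made up more of its own neighbours than of all sites, with each pair of neighbours counted from both ends. Of the 680 neighbours of Brg1-only sites, 73.2% were Brg1-only, a class that makes up 55.4% of sites, and 12.9% were Olig2-only, a class of 29.4%. Of the 233 neighbours of Olig2-only sites, 53.2% were Olig2-only and 37.8% Brg1-only. Without the clusters of 7 sites described below, the Olig2-only share was 43.6% of 188 neighbours. Of the 129 neighbours of shared sites, 14 (10.9%) were shared sites, a class of 15.2%, a count too small to tell these shares apart. Brg1-only sites were 72.9% of the 129, much the same as beside Brg1-only sites (73.2%). Most shared sites stood alone, 826 of 941 having no site within 10 kb.

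**Figure D3:**
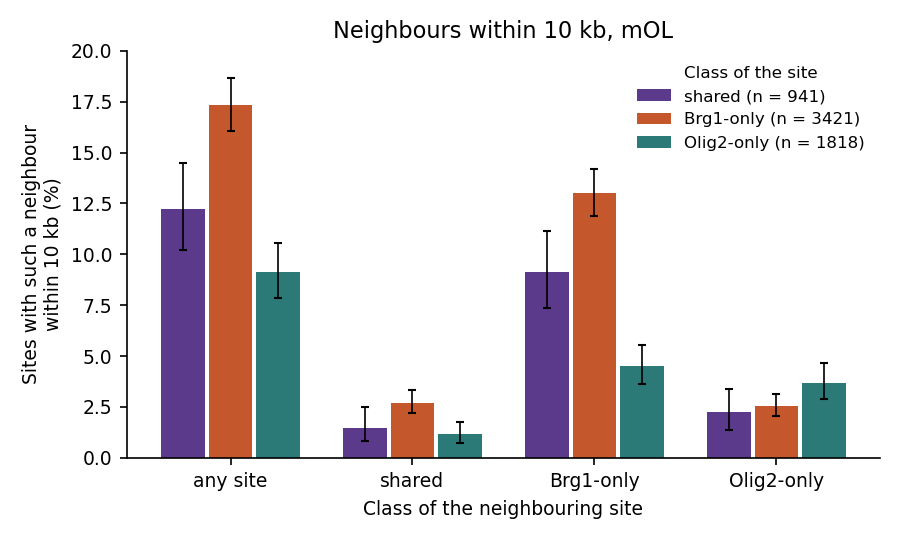
Share of sites (y axis, percent) that have another site of the class on the x axis within 10 kb; colours give the class of the site itself, and error bars are exact 95% intervals over sites. Brg1-only sites have the highest bar for any neighbour (17.3%) and for Brg1-only neighbours (13.0%), and Olig2-only sites have the highest bar for Olig2-only neighbours (3.69%).

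Acetylated sites had neighbours more often in every class. A neighbour was found for 19.5% (18.0 to 21.0) of Brg1-only sites with H3K27Ac and 10.4% (8.36 to 12.7) of those without. The values were 15.0% (12.4 to 17.9) and 5.02% (2.70 to 8.43) for shared sites, and 13.2% (10.1 to 16.7) and 7.84% (6.48 to 9.39) for Olig2-only sites. Among acetylated sites the interval of the Olig2-only class lay below that of the Brg1-only class and overlapped that of the shared class.

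Chains of sites with gaps of up to 10 kb were joined into clusters. There were 404 clusters of 2 or more sites, which held 874 sites (14.1% of all), and 356 of them were pairs. Brg1-only sites alone made up 193 clusters (47.8%, 42.8 to 52.8), Olig2-only sites alone 27, and shared sites alone 6. Both factors were present in 184 clusters (45.5%, 40.6 to 50.5): 80 held shared and Brg1-only sites, 76 held Brg1-only and Olig2-only sites and no shared site, 15 held shared and Olig2-only sites, and 7 held all 3 classes. The 6 clusters of shared sites alone complete that count. In these 76 clusters, with a median span of 6.98 kb and up to 7 sites, both factors were thus present without meeting at any site.

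The largest clusters were unlike each other. The cluster at chr5:142863924-142901682 spanned 37.8 kb and held 7 sites, 6 Brg1-only and 1 Olig2-only. All 7 met mOL H3K27Ac, 10 H3K27Ac peaks lay in the span, and 6 of the 7 sites met an iOL Olig2 peak. The cluster at chr10:15451126-15462356 spanned 11.2 kb and held 7 Olig2-only sites, 587 to 855 bp wide. None of these met a mark of mOL or a Brg1 or Olig2 peak of iOL or an Olig2 peak of OPC, and the nearest H3K27Ac peak was 40.9 kb away. Whether reads map to a single place in the build at these 7 sites was not analysed here, so their calls rest on the deposited list alone. No other cluster held more than 5 sites, and the longer of the 2 clusters of 5, at chr4:82283380-82311412, spanned 28.03 kb and held 1 shared, 3 Brg1-only and 1 Olig2-only site, of which 4 were acetylated. Genes were not assigned to these places, as no annotation of build rn4 was used here.

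The marks of mOL at the sites separated Olig2-only sites from the others. H3K27Ac was found at 682 of 941 shared sites (72.5%, 69.5 to 75.3), 2622 of 3421 Brg1-only sites (76.6%, 75.2 to 78.1) and 441 of 1818 Olig2-only sites (24.3%, 22.3 to 26.3). Acetylation without H3K4me3, the pattern of enhancers, was found at 68.3% (65.3 to 71.3), 70.5% (68.9 to 72.0) and 23.3% (21.3 to 25.3). None of the 3 marks was found at 27.3% (24.5 to 30.3) of shared, 23.1% (21.7 to 24.6) of Brg1-only and 74.2% (72.1 to 76.2) of Olig2-only sites. Over all widths, shared sites thus carried marks much as Brg1-only sites did. At like site width fewer of them met H3K27Ac. Over 700 and up to 900 bp the share was 56.2% (50.1 to 62.2) of shared and 78.9% (76.2 to 81.4) of Brg1-only sites. Over 900 and up to 1200 bp it was 75.7% (71.1 to 79.9) and 90.1% (87.8 to 92.0). In the bands of over 500 up to 700 bp and over 1200 bp it was also lower at shared sites, with overlapping intervals.

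**Figure D4:**
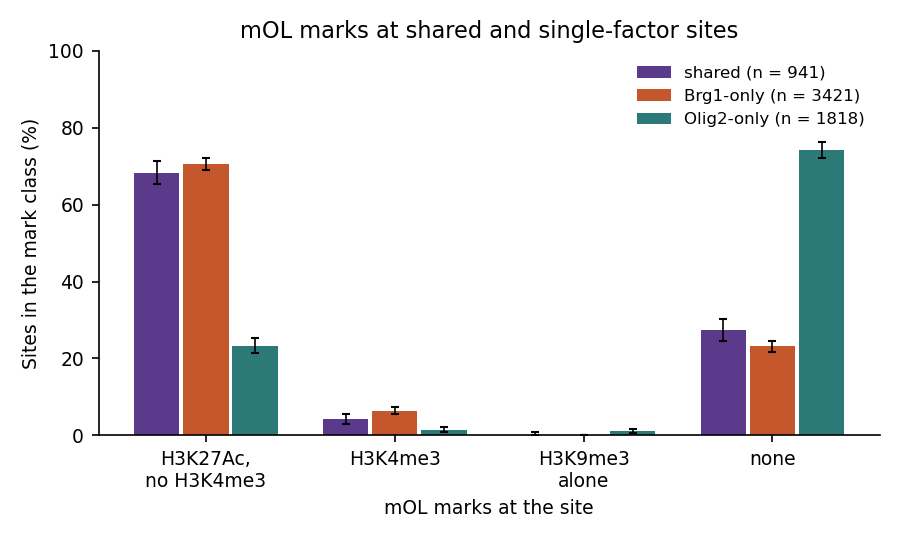
Share of sites (y axis, percent) in each class of mOL marks (x axis) for shared, Brg1-only and Olig2-only sites; error bars are exact 95% intervals over sites. The Olig2-only bar is the lowest for H3K27Ac without H3K4me3 (23.3%) and the highest for no mark (74.2%).

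Promoter marks were rare at all classes. H3K4me3 was found at 6.40% (5.60 to 7.27) of Brg1-only, 4.14% (2.96 to 5.62) of shared and 1.43% (0.936 to 2.09) of Olig2-only sites. All 39 shared sites with H3K4me3 were acetylated, as were 211 of the 219 Brg1-only sites with it, but 18 of the 26 Olig2-only sites. The nearest H3K4me3 peak was a median of 60.8 kb (56.9 to 64.6) from Brg1-only sites, 86.3 kb (74.3 to 100.1) from shared sites and 86.6 kb (77.9 to 96.1) from Olig2-only sites. By median distance to H3K4me3, shared sites were thus like Olig2-only sites and not like Brg1-only sites. At short range shared sites lay between the other classes. An H3K4me3 peak lay within 1 kb of 4.89% of shared, 2.42% of Olig2-only and 7.72% of Brg1-only sites. The intervals of these shares did not overlap.

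The silencing mark H3K9me3 was rarer still. It was found at 8 shared sites (0.850%, 0.368 to 1.67), 15 Brg1-only sites (0.438%, 0.246 to 0.722) and 22 Olig2-only sites (1.21%, 0.760 to 1.83). All 15 Brg1-only sites and 6 of the 8 shared sites with H3K9me3 also met H3K27Ac, whereas 20 of the 22 Olig2-only sites had H3K9me3 alone. Of these 22 sites, 15 were among the 158 Olig2-only sites that met no Olig2 peak of OPC or iOL, described below. The other 1660 Olig2-only sites held 7 (0.422%). Brg1-only sites with H3K9me3 alone numbered 0 of 3421, with an upper limit of 0.108%.

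Because a wider site meets a mark more easily, acetylation was also read within bands of peak width. For Olig2 peaks the difference by Brg1 was present in each of the 4 bands. In the narrowest, 353 to 676 bp, 65.9% (58.1 to 73.1) of Olig2 peaks with Brg1 and 20.5% (17.2 to 24.2) of those without met H3K27Ac. In the widest, 865 to 3850 bp, the shares were 79.7% (75.03 to 83.9) and 31.1% (26.3 to 36.3).

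For Brg1 peaks, acetylation followed width and went slightly the other way with Olig2. In the narrowest band, 201 to 652 bp, 43.8% (36.7 to 51.1) of Brg1 peaks with Olig2 and 54.1% (50.7 to 57.3) of those without met H3K27Ac. The shares were 65.4% (58.7 to 71.7) and 73.9% (70.8 to 76.8) in the next band, 78.8% (73.4 to 83.6) and 84.7% (82.02 to 87.03) in the third, and 92.3% (88.6 to 95.1) and 96.5% (95.04 to 97.7) in the widest. The value with Olig2 was the lower in all 4 bands, although the intervals overlapped in each of them.

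**Figure D5:**
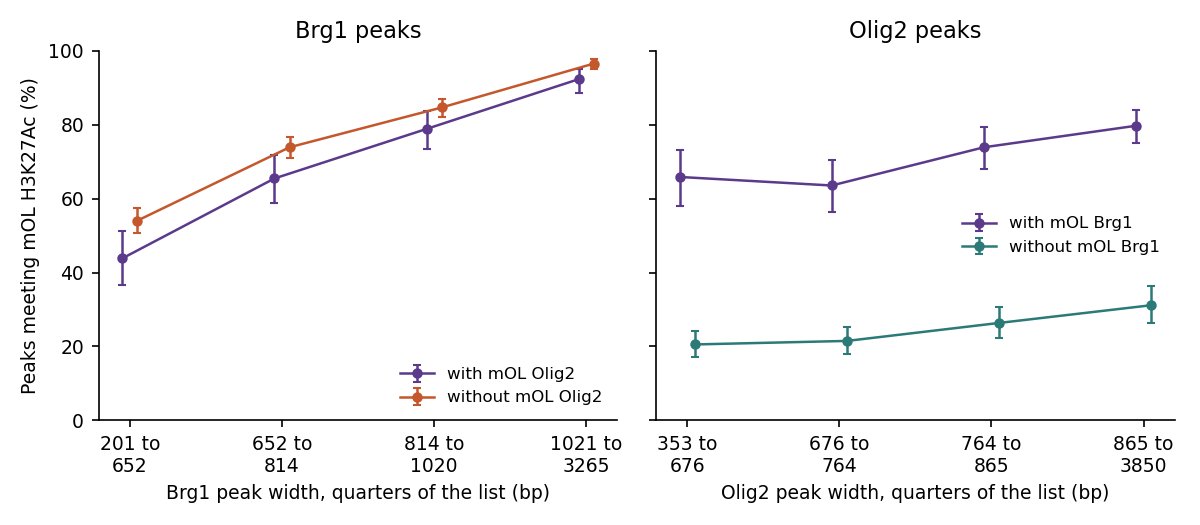
Share of Brg1 peaks (left) and Olig2 peaks (right) that meet mOL H3K27Ac (y axis, percent) in 4 equal bands of peak width (x axis, bp), split by the presence of the other factor; error bars are exact 95% intervals over peaks. The Olig2 lines stay apart in every band (65.9% and 20.5% in the narrowest), while the Brg1 lines rise together (43.8% and 54.1% in the narrowest, 92.3% and 96.5% in the widest).

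The acetylated regions themselves differed between the classes. The H3K27Ac peak at an acetylated Brg1-only site had a median width of 1553.5 bp (1506 to 1609), that at a shared site 1450.5 bp (1335 to 1569), and that at an Olig2-only site 940 bp (851 to 1033). H3K27Ac peaks without either factor had 797 bp (791 to 803). A wider region also meets a site more easily, and the part of this in these widths was not tested. The centre of the site lay inside the H3K27Ac peak at 85.7% (84.3 to 87.02) of acetylated Brg1-only, 78.3% (75.01 to 81.3) of shared and 66.9% (62.3 to 71.3) of Olig2-only sites. Olig2-only sites thus met narrower acetylated regions and lay more often at their edge.

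Most acetylated regions with a factor held a single site. Of the 35268 mOL H3K27Ac peaks, 30880 met no site, 4300 met 1 and 88 met 2 or more, with at most 3. Brg1 without Olig2 was found in 2991 of them, Olig2 without Brg1 in 534, and a shared site in 855. Only 8 held Brg1-only and Olig2-only sites with no shared site. An acetylated Brg1-only site shared its H3K27Ac peak with Olig2 elsewhere in the peak in 26 of 2622 cases (0.992%, 0.649 to 1.45), and an acetylated Olig2-only site shared its peak with Brg1 in 11 of 441 (2.49%, 1.25 to 4.42). Acetylated regions with 2 or more sites of any class were themselves rare (88), and the same share for 2 sites of 1 factor was not computed. Whether the factors kept apart within a region was therefore not tested.

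Brg1 was more frequent in acetylated regions with Olig2 at every width of the region. In the narrowest band of H3K27Ac peaks, 186 to 591 bp, Brg1 was found at 43.5% (36.8 to 50.4) of the 216 with Olig2 and 4.19% (3.77 to 4.63) of the 8601 without. In the widest, 1303 to 23553 bp, it was found at 71.7% (67.8 to 75.4) of 555 and 18.6% (17.7 to 19.4) of 8262.

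Most sites that met no H3K27Ac had none within 10 kb either. The nearest H3K27Ac peak was a median of 34.7 kb (29.1 to 40.0) from unacetylated Brg1-only sites, 57.7 kb (42.7 to 75.9) from unacetylated shared sites and 49.9 kb (46.1 to 56.8) from unacetylated Olig2-only sites. It lay within 1 kb of 5.76% (4.25 to 7.60), 1.54% (0.422 to 3.91) and 2.11% (1.41 to 3.01) of them. Within 10 kb the shares were 26.3% (23.3 to 29.5), 12.4% (8.61 to 17.0) and 16.6% (14.6 to 18.6).

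The mOL Olig2 list holds 2759 peaks and those of OPC and iOL hold 21901 and 25787, so the classes were also described by the lists of the earlier stages. Olig2 of OPC or iOL was found at 99.7% (99.1 to 99.9) of shared sites, 91.3% (89.9 to 92.6) of Olig2-only sites and 67.1% (65.5 to 68.7) of Brg1-only sites. Brg1-only is therefore a statement about the mOL lists: 2296 of the 3421 sites met an Olig2 peak of an earlier stage, and 1125 met none at any stage. Against the iOL Olig2 list, 2059 of the 3421 Brg1 peaks without mOL Olig2 met a peak.

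Brg1-only sites with and without earlier Olig2 differed in acetylation and in earlier Brg1. Those with Olig2 of OPC or iOL met mOL H3K27Ac in 80.7% (79.0 to 82.3) of cases and iOL Brg1 in 57.6% (55.6 to 59.7). Those without Olig2 at any stage met them in 68.4% (65.6 to 71.2) and 15.6% (13.5 to 17.8). Among Brg1-only sites, earlier Olig2 was met by 37.8% of those up to 500 bp and 87.1% of those over 1200 bp. H3K27Ac of mOL was met by 37.8% and 97.6% in the same bands. The part of site width in the difference by earlier Olig2 was not tested. Clustering differed by less than the counting error, with a neighbour within 10 kb for 17.5% (16.0 to 19.1) and 17.0% (14.8 to 19.3).

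Brg1 of iOL was found at 72.9% (69.9 to 75.7) of shared, 43.8% (42.1 to 45.5) of Brg1-only and 22.9% (21.02 to 24.9) of Olig2-only sites. The 417 Olig2-only sites that met Brg1 at an earlier stage were acetylated in mOL in 38.1% (33.4 to 43.0) of cases, and the 1401 that met Brg1 at no stage in 20.1% (18.1 to 22.3). Acetylation called in mOL and at neither earlier stage was found at 23.9% (22.5 to 25.4) of Brg1-only, 14.7% (12.5 to 17.1) of shared and 9.13% (7.85 to 10.5) of Olig2-only sites. Among the sites with mOL H3K27Ac, the share with it at neither earlier stage was highest in the Olig2-only class: 37.6% (33.1 to 42.3) of Olig2-only, 31.2% (29.4 to 33.01) of Brg1-only and 20.2% (17.3 to 23.4) of shared sites. The mOL H3K27Ac list is the longest of the 3 stages, and its part in these last values was not tested.

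Single places show the range within the classes. The widest shared site, chr11:31276814-31279488 (2675 bp), met H3K27Ac and H3K4me3 of mOL, Olig2 of OPC and iOL, and Brg1 of iOL. The widest Brg1-only site, chr1:135266007-135269271 (3265 bp), met H3K27Ac and no H3K4me3, lay 66.04 kb from the nearest mOL Olig2 peak, and met Olig2 of both earlier stages. The Brg1-only site farthest from mOL Olig2, chr1:67893040-67893853, was 5512 kb from it and was acetylated, and it met an iOL Olig2 peak. The widest Olig2-only sites were of another kind. At chrX:128955180-128959029 (3850 bp), chr14:21896495-21899240 (2746 bp) and chr9:802285-804945 (2661 bp) no H3K27Ac or H3K4me3 of mOL and no Olig2 of OPC or iOL was found. The site on chromosome X met H3K9me3 of mOL and the others did not. The nearest Brg1 peak was 3520, 934.6 and 1578 kb away, and how uniquely reads map at these sites was not analysed here.

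All 3 classes were found on each of the 20 autosomes and on chromosome X. On the autosomes the share of Brg1 peaks that met Olig2 ranged from 16% to 28.1%, with a median of 21.0%, and the share of Olig2 peaks that met Brg1 from 23.9% to 41.7%, with a median of 35.7%. Brg1 had 11.3 to 21.6 peaks and Olig2 8.37 to 14.7 peaks for each 10 Mb of an autosome. Chromosome X had 1.18 Brg1 and 3.12 Olig2 peaks for each 10 Mb, 19 and 50 in all, and 6 of its 63 sites were shared.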

How the data were processed

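ChIP-seq peaks of 11 of the 17 libraries were used, 1 library for each target and stage, grouped by sample title. The deposited files hold 3 columns (chromosome, start and end in bp), with no score, count or p-value. The submitters' processing notes name MACS 1.4.0 and rn4. The sources used here give no aligner, threshold or control. Depth is unknown. List length, and with it overlap, grows with depth and with a looser threshold.

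Starts were made 1-based for printing. Overlap meant at least 1 bp. Both mOL factor lists were merged into sites, a centre was the midpoint of a peak, and distances between peaks were edge to edge. Clusters joined gaps of up to 10 kb. Marks were mOL peaks meeting the site. Width bands of peaks were 4 groups of equal number, and width bands of sites had fixed limits in bp. Regions named were the widest sites of each class, the 3 clusters with most sites (ties by length), and Brg1-only sites farthest from Olig2, a selection of which is given. No test was made. The members and comparisons were chosen with earlier results of these data known. The acetylation in width bands, the split by earlier stages and the clusters of 7 were examined after the peaks had been seen.

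Calculations used Python 3.11.15, numpy 2.4.6, pandas 2.3.3, scipy 1.17.1 and matplotlib 3.10.9. They were tested on simulated data, and counts were checked with bedtools 2.31.1. Alternatives were other overlap rules, gaps and centre rules, the wider 50% of lists, the middle 200 bp, and assembled chromosomes alone.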

Additional observations from a re-analysis of the deposited data

How the results depend on the processing

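Of 49 alternative values of 11 results, 24 stayed inside the 95% interval of the reported value and 25 did not. Under each of these 25 the order of the site classes, where classes were compared, was the same. With the wider 50% of each factor list, 17.7% of Brg1 peaks met Olig2 and 27.8% of Olig2 peaks met Brg1, the centre distance was 106.5 bp, and the nearest-Olig2 distance was 441.2 kb. Neighbours within 10 kb were then found at 8.33% of shared, 11.1% of Brg1-only and 6.33% of Olig2-only sites. Acetylation was found at 86.7%, 90.0% and 34.8% of these, and 80.1% of Brg1-only sites met earlier Olig2. With the middle 200 bp of each peak the overlaps were 18.0% of Brg1 and 28.6% of Olig2 peaks. Gaps of 5 kb gave neighbours at 8.08%, 10.8% and 5.61% of shared, Brg1-only and Olig2-only sites, and gaps of 20 kb at 21.9%, 26.98% and 15.5%. Acetylation of these classes was 68.9%, 74.3% and 21.9% at the middle 200 bp of each site, and 57.3%, 61.2% and 13.8% with the wider 50% of the H3K27Ac list. The cause of these shifts was not tested. Overlap of 50% of the shorter peak, gaps of up to 1000 bp for factors and for H3K27Ac, assembled chromosomes alone, centre-based distances and leaving out the clusters of 7 sites gave no value outside those intervals. No paired analysis was possible because each target and stage has 1 library. Unknown depth limits every statement that a factor or mark is missing from a site.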

Other observations

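A small group of Olig2-only sites stood apart from the rest of its class. Of the 1818 Olig2-only sites, 158 met no Olig2 peak of OPC or iOL. They were a median of 784 bp wide (747 to 822) against 741 bp (736 to 749) for the 1660 others. H3K27Ac of mOL was found at 8.23% (4.45 to 13.7) of the 158 and 25.8% (23.7 to 28.0) of the others, and H3K9me3 at 9.49% (5.41 to 15.2) and 0.422% (0.170 to 0.867). Another site lay within 10 kb of 26.6% (19.9 to 34.2) of the 158 and 7.47% (6.25 to 8.84) of the others, and 13 of the 158 were on chromosome X. The cluster of 7 sites on chromosome 10 belongs to this group. How uniquely reads map at the 158 sites was not analysed here.

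Width ran differently with earlier Olig2 in the classes. Among Olig2-only sites over 1200 bp, 10 of 34 (29.4%, 15.1 to 47.5) met an earlier Olig2 peak, against 860 of 918 (93.7%, 91.9 to 95.2) of those over 700 and up to 900 bp. Among Brg1-only sites the share went from 67.2% (64.2 to 70.1) to 87.1% (83.6 to 90.2) between the same bands, and 223 of 223 shared sites over 1200 bp met one.

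Chromosome X held 0.434% (0.261 to 0.677) of mOL Brg1 peaks, 1.81% (1.35 to 2.38) of mOL Olig2 peaks and 1.98% (1.84 to 2.14) of mOL H3K27Ac peaks. In iOL it held 1.15% (0.887 to 1.47) of Brg1 peaks.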
